A study of Mus musculus with 20 samples.

Results

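The 10 genes described here are the Notch receptors Notch1, Notch2, Notch3 and Notch4, the ligands Dll4, Jag1 and Jag2, the nuclear effector Rbpj and the target genes Hes1 and Hey1. They were chosen by name, as rows of the count files with these symbols, and all 10 were found among the 24062 gene symbols and passed the filter on low counts that left 19209 genes. The RNA came from dermal lymphatic endothelial cells (LECs), sorted as CD31+podoplanin+ cells from the ear skin of wild type C57BL/6 mice (C57BL/6N and male in the study's methods) at postnatal day 56. Mice were kept in a cycle of 12 h light and 12 h dark, and cells were taken at Zeitgeber time (ZT) 1, 7, 13 and 19, where ZT0 is lights on, so that ZT1 and ZT7 lie in the light and ZT13 and ZT19 in the dark. Each time point had 5 libraries, and each library was a pool of 4 ears from 2 mice that held between 3000 and 5000 cells, so n counts pools and not single mice. No group carried a mutation or a treatment. The design asks whether these genes differ by time of day in LECs.

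Notch receptors are cut when a Delta-like or Jagged ligand on a neighbouring cell pulls on them, and the freed intracellular part enters the nucleus. There it binds RBPJ, a DNA-binding protein that represses its targets until the receptor part arrives, and turns on genes such as Hes1 and Hey1, which encode repressors of transcription. In endothelium Notch1 and Notch4 are the receptors usually named, Dll4 and Jag1 act with opposed effects on sprouting, and Notch signalling takes part in the sprouting of lymphatic vessels and the formation of their valves. Notch3 is best known from the mural cells of blood vessels.

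Rbpj is the member with the most variable level among those always detected apart from Hes1. Notch1 and Jag1 are the pair that moved together most closely over the libraries, and Dll4 had the smallest SD on the log2 scale. The promoter sequences of these 4 genes are therefore shown. They are RefSeq sequences of GRCm38.p6, found for 8 of the 10 genes, Hes1 and Hey1 excepted, and give the bases upstream of the RefSeq start, 5′ to 3′ on the gene's strand. Bases that lie in an annotated exon were left out. Capitals mark matches, on both strands, to the letters TGGGAA, the core of the site that RBPJ binds, to the E-box CACGTG, bound by CLOCK and BMAL1, and to the GC box GGGCGG.

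Rbpj, chr5:53590096-53590213, + strand: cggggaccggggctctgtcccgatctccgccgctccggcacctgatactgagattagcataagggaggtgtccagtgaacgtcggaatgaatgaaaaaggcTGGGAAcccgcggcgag
Notch1, chr2:26503825-26504072, - strand: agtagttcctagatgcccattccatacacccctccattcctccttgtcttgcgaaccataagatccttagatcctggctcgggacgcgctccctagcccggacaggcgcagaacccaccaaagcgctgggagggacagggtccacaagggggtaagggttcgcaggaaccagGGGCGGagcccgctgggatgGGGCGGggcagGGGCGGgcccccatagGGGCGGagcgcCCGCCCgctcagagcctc
Jag1, chr2:137116645-137116770, - strand: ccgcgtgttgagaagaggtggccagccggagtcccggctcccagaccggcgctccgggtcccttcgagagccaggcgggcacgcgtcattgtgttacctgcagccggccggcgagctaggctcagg
Dll4, chr2:119325565-119325783, + strand: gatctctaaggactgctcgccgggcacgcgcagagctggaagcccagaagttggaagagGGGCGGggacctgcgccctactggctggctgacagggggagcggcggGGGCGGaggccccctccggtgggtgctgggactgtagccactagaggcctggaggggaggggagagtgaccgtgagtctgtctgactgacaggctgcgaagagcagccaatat

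The RBPJ core stands once in the printed stretch of Rbpj and in none of the printed stretches of Notch1, Jag1 and Dll4. In the full windows of 250 bases it was found in Rbpj alone of the 8 genes, at 149 and 65 bases before the start of the first of its 2 RefSeq promoters, against 21.6% of 32851 promoters. No window of the 8 genes held the E-box, which 6.02% of all promoters hold. GC boxes, present in 32.7% of all promoters, were found 5 times in each of Notch1, Notch2 and Jag2, 4 times in Notch3, 2 times in Dll4, and not in Jag1, Notch4 or Rbpj.

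Between 4475111 and 42002363 reads per library were counted on genes, and 12477 to 21697 genes had at least 1 read. Of the reads on a gene or on no gene, 12.7% to 81.6% fell on genes, with medians of 64.0% at ZT19 and 17.5% to 24.8% at the other time points, so this share and the time point cannot be fully told apart. The share of reads called ambiguous, because they overlapped more than 1 gene, ran from 3.68% to 6.00% in 6 libraries (ZT1 replicates 2 and 5, ZT7 replicate 1, ZT13 replicates 2 and 4, and ZT19 replicate 4) and from 1.91% to 3.29% in the other 14. The division at 3.5% was chosen after the values had been seen. Of 7 LEC markers, Prox1, Lyve1, Pdpn, Flt4, Mmrn1 and Reln passed the filter and Ccl21a was at 0 in all 20 libraries. The paper measured Ccl21 mRNA by qPCR in sorted dermal LECs, with a peak at ZT19. Why no read was counted on Ccl21a here was not tested. The summed level of the LEC markers was 2169 to 5804 TPM (transcript counts per length, scaled to the same total in each library). Keratinocyte markers were also abundant. Their summed level over 12 genes was 3395 to 6332 TPM at ZT1, 9846 to 26570 at ZT7, 931 to 4120 at ZT13 and then 13570 to 22400 at ZT19, and 5 of the 12 differed among the time points. Blood endothelial markers summed to 232 to 1413 TPM over 6 genes, with the lowest median, 297.5, at ZT1 and the highest, 860.5, at ZT13, and 0 of the 6 differed among the time points. By median TPM over the 20 libraries this was mostly Emcn (234) and Plvap (197). Cd34 (4.49), Vwf (4.23), Flt1 (3.03) and Sox17 (2.5) were scarce. Fibroblast markers summed to 30.5 to 725 TPM over 7 genes, of which 1 differed, and mural cell markers to 10.5 to 104 TPM over 7 genes, of which 0 did. In a bulk sample, fewer cells of a type and less RNA per cell cannot be told apart. Of 2 clock genes checked among the time points, the clock output gene Dbp passed with an adjusted p of 0.00409 and Arntl, which encodes BMAL1, did not, with 0.224, in the edgeR quasi-likelihood F-test (Benjamini-Hochberg adjusted).

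Per length of the longest transcript, the target gene Hes1 had the highest level of the 10, Notch1 was the leading receptor, and Notch3 and Notch4 were scarce. Hes1 had a mean of 1010 TPM with a median of 238, and was above Notch1 in 20 of 20 libraries. Its mean lay at the 99.6th percentile of the 23699 gene symbols with a transcript length. Notch1 had 87.2 ± 38.1 TPM (SD, n = 20 libraries) and exceeded the next gene, Jag2, in 18 of 20. The ligands Jag2 (40.6 ± 30.5) and Dll4 (39.5 ± 19.5) could not be ordered, since Jag2 was the higher in 10 of 20 libraries.

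Rbpj (28.2 ± 25.9), Hey1 (26.1 ± 13.8), Jag1 (21.2 ± 7.01) and Notch2 (19.5 ± 10.8) followed, all as TPM, and no neighbours among them, nor Dll4 and Rbpj, differed beyond the spread of their log2 ratio over libraries. Notch2 stood above Notch4 in 19 of 20 libraries, by 2.14 ± 0.94 on the log2(TPM + 1) scale. Notch4 had 3.81 ± 3.10 TPM and Notch3 2.48 ± 2.98, and Notch4 was the higher of these in 13 of 20. These levels use the longest annotated transcript of each gene. With the mean length of a gene's transcripts, Notch1 came to 335 TPM and Jag2 to 111, and Notch1 exceeded Hes1 in 9 of 20 libraries (medians of 290 and 307 TPM), so levels between genes hold only for the length chosen.

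**Figure D1:**
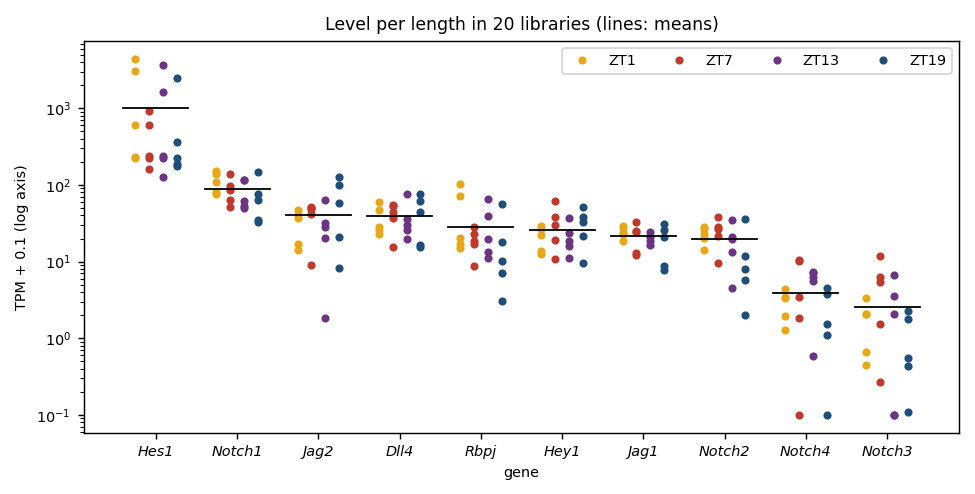
Level per length of the 10 genes in 20 libraries. The vertical axis gives TPM plus 0.1 on a log scale, points are libraries coloured by time point and lines are means. Hes1 spreads from 127 TPM upwards, the next 7 genes have means between 19.5 and 87.2 TPM, and Notch4 and Notch3 lie lowest.

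None of the 10 genes differed by time of day past the threshold of an adjusted p of 0.05 in the edgeR quasi-likelihood F-test (Benjamini-Hochberg adjusted) over 19209 genes. Among the 4 time points this was 0 of 10 genes, beside 0.422% of all genes; at an unadjusted p under 0.05 it was 0 of 10 beside 15.7%, and with DESeq2 it was 0 of 10 beside 3.12%. For a 24-h rhythm, fitted as cosine and sine terms, the 3 counts were 0, 0 and 0, beside 0.0312%, 9.23% and 0.385% of all genes. The smallest adjusted p among the time points was 0.41, for Notch1, and the largest was 0.931, for Notch4.

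Pairs of time points gave 0 of 10 genes in each of the 6 pairs at the adjusted threshold, in edgeR and in DESeq2. The shares of all genes called by edgeR, at an unadjusted p under 0.05 by edgeR and by DESeq2 were 0.00521%, 4.97% and 0.0625% between ZT1 and ZT7, 0.0208%, 5.37% and 0.39% between ZT1 and ZT13, and 0.0156%, 21.6% and 10.3% between ZT1 and ZT19. They were 0.0937%, 2.59% and 0.422% between ZT7 and ZT13, 0.0156%, 19.7% and 10.8% between ZT7 and ZT19, and 0.588%, 19.2% and 9.24% between ZT13 and ZT19. At an unadjusted p under 0.05, edgeR gave 2 members between ZT1 and ZT7 (Rbpj and Hes1), 2 between ZT1 and ZT19 (Notch1 and Notch2) and 0 in each other pair. All pairs share libraries with others, so these are not separate pieces of evidence.

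The median difference of the 10 genes from ZT1 was -0.36 at ZT7, -0.44 at ZT13 and then -0.80 at ZT19 on the log2 scale, beside 0.05, -0.06 and -0.39 for all genes tested. Between ZT7 and ZT19 it was 0.02, beside -0.20 for all genes.

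**Figure D2:**
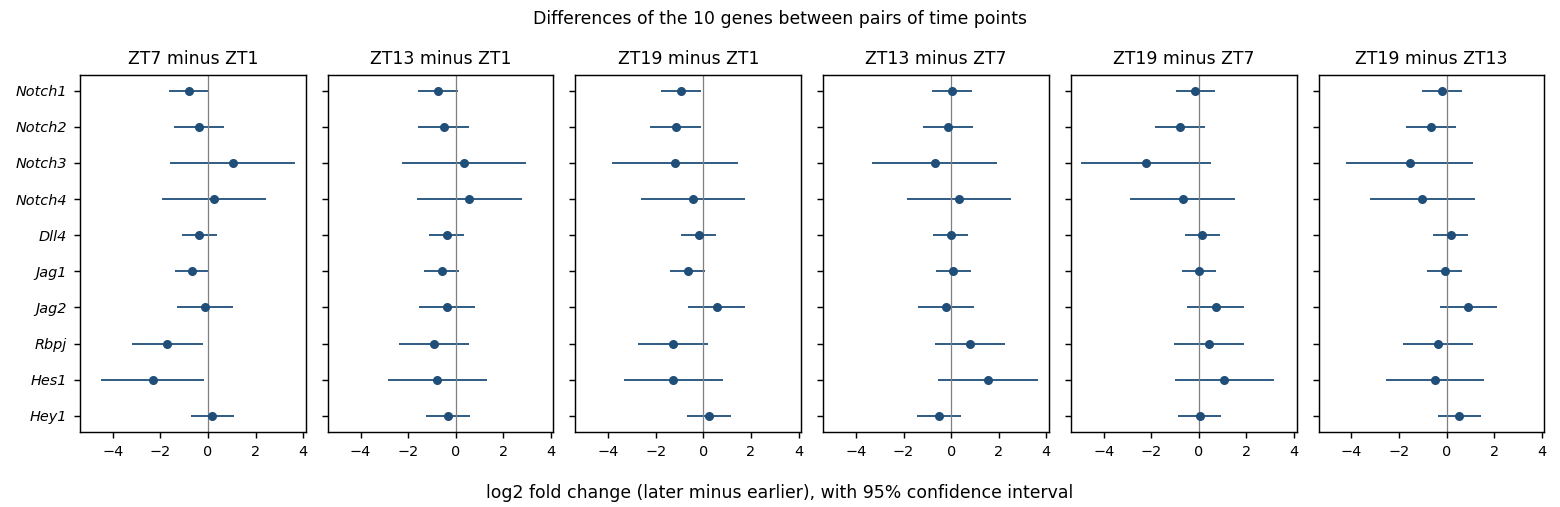
Differences of the 10 genes in the 6 pairs of time points. The horizontal axis gives the log2 fold change, later minus earlier time point, with points for the estimate and bars for the 95% confidence interval from 5 libraries each. Most intervals include 0, and the widest belong to Notch3, Notch4 and Hes1.

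Of the receptors, Notch1 and Notch2 had their highest means at ZT1 and their lowest at ZT19. Notch1 lies on chromosome 2 of GRCm38 from 26457903 to 26516663 on the minus strand (34 exons in its longest transcript). Its normalized counts were 7590.1, 4597, 5532, 7388 and 4729 at ZT1 (mean 5967 ± 1436, SD, n = 5) and 3086, 3089.9, 5776, 2192 and 3081 at ZT7 (3445 ± 1359). They were 5832, 3301, 4647, 2316 and 1631 at ZT13 (3545 ± 1709) and 1258, 2609.8, 5547, 4215 and 1875 at ZT19 (3101 ± 1758). Every library of ZT1 was above 4 of the 5 libraries of ZT7 and of ZT19, but 1 library of each of these and 2 libraries of ZT13 reached the range of ZT1, so no pair of groups was separate. Of the exon bases of Notch1, 10.4% overlap genes annotated on the opposite strand, and 5.0% to 6.0% of those of Notch2, Notch3 and Dll4 overlap another gene, and no source used here states whether the counting used strand. From ZT1 to ZT19 Notch1 differed by -0.94 on the log2 scale (SE 0.41, 95% confidence interval -1.78 to -0.10), with an adjusted p of 0.177 in the edgeR quasi-likelihood F-test (Benjamini-Hochberg adjusted). From ZT7 to ZT19 the difference was -0.15 (-0.98 to 0.68).

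Notch2, the second receptor in level (chromosome 3, 98013527 to 98150361, plus strand), had 1325 ± 279 normalized counts at ZT1, 1028 ± 293 at ZT7, 935 ± 620.1 at ZT13 and then 594 ± 543 at ZT19 (SD, n = 5 each). The ZT19 libraries held 75.3, 449.8, 1507, 580.4 and 359, so 1 of them lay within the range of ZT1 and the other 4 below it. The difference from ZT1 to ZT19 was -1.16 (SE 0.52, interval -2.23 to -0.09), with an adjusted p of 0.195 in the same edgeR test. The log2 on-gene odds set reads on a gene against reads on none. With these odds as a covariate, the difference was -0.06 (SE 0.51) for Notch2 and -0.33 (SE 0.41) for Notch1. The share of reads on genes did not overlap between ZT1 (20.2% to 29.5%) and ZT19 (35.0% to 81.6%). For this pair the covariate and the time point cannot be told apart, and that fit called 0% of all genes.

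Notch3, the mural cell receptor (chromosome 17, 32120820 to 32166852, minus strand), had the lowest level of the 10. It had 0 reads in ZT13 replicates 2 and 5, where 3 reads would correspond to 3.18 and 0.648 normalized counts, 1 read in ZT19 replicate 1, and up to 315 normalized counts in ZT7 replicate 5. Notch4, a receptor largely of endothelium (chromosome 17, 34564268 to 34588503, plus strand), had 0 reads in ZT7 replicate 1 and ZT19 replicate 1, with limits of 3.69 and 0.766 normalized counts, and reached 245 in ZT7 replicate 4. Levels varied from none to among the highest within single time points, and the 95% intervals from ZT7 to ZT19 were -4.95 to 0.49 for Notch3 and -2.88 to 1.52 for Notch4 on the log2 scale. The 4 libraries with 0 reads of either gene held 10095100 to 42002363 reads on genes, all above the median of 9379794 over the 20 libraries. A change of several fold in either could not be told from none with this spread between libraries. The limits from read counts cover counting error only.

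Among the ligands, Jag1 was the only gene of the 10 for which a pair of time points did not overlap. Jag1, a Jagged ligand (chromosome 2, 137081456 to 137116644, minus strand), had normalized counts of 864, 845, 690.2, 864 and 639 at ZT1 and 433, 545, 586, 263 and 628 at ZT7. At ZT13 it had 625, 519, 569, 535 and 362, and at ZT19 182, 523, 681, 827 and 260.2. All 5 libraries of ZT1 stood above all 5 of ZT7 and all 5 of ZT13, while ZT19 spread over both ranges. Groups that did not overlap were found for 1.75% of all genes between ZT1 and ZT7 and for 1.47% between ZT1 and ZT13, beside 1 of the 10 genes in each. In the other 4 pairs it was 0 of 10 genes, beside 8.56% of all genes between ZT1 and ZT19, 1% between ZT7 and ZT13, 1.94% between ZT7 and ZT19 and 2.48% between ZT13 and ZT19. The differences from ZT1 were -0.67 at ZT7 (SE 0.36, interval -1.40 to 0.06), -0.58 at ZT13 (-1.31 to 0.15) and -0.66 at ZT19 (-1.39 to 0.07). Their adjusted p values were 0.999, 1 and 0.278 in the edgeR quasi-likelihood F-test (Benjamini-Hochberg adjusted).

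Dll4, the Delta-like ligand of sprouting endothelium (chromosome 2, 119325784 to 119335962, plus strand), had the smallest SD over all 20 libraries, 0.54 on the log2 scale. Its normalized counts were 781 ± 306 at ZT1, 611 ± 184 at ZT7, 604 ± 250.2 at ZT13 and then 678 ± 303 at ZT19 (SD, n = 5 each), and the difference from ZT7 to ZT19 was 0.15 (interval -0.59 to 0.89). Its SD within time points was 0.56, the same as that of Jag1, against a median of 1.25 over all genes tested. A change of more than 1.11 on the log2 scale in either direction lay outside the intervals of all 6 pairs in this fit. With the keratinocyte score as a covariate the estimates were wider, with 0.80 (SE 0.54) from ZT13 to ZT19 and -0.78 (SE 0.44) from ZT1 to ZT13.

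Jag2, a Jagged ligand that keratinocytes also make (chromosome 12, 112907819 to 112929776, minus strand), had its highest mean at ZT19. Its normalized counts there were 1124, 2341, 2028, 756 and 252, against 290.03, 954, 1104, 766 and 895 at ZT7. All ZT7 libraries lay inside the range of ZT19, and the difference was 0.70 (SE 0.58, interval -0.49 to 1.88), with an adjusted p of 0.516 in the edgeR quasi-likelihood F-test (Benjamini-Hochberg adjusted). Leaving out single libraries moved this difference between 0.38 and 0.97. The keratinocyte score of a library, the mean centred log2 level of the 12 markers, was related to Jag2 with r = 0.455 over 20 libraries (permutation p = 0.048, adjusted p = 0.107 over 32 relations; Spearman's rho = 0.176, permutation p = 0.455, adjusted p = 0.608). Without the 2 libraries farthest from the median score r was -0.15.

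**Figure D3:**
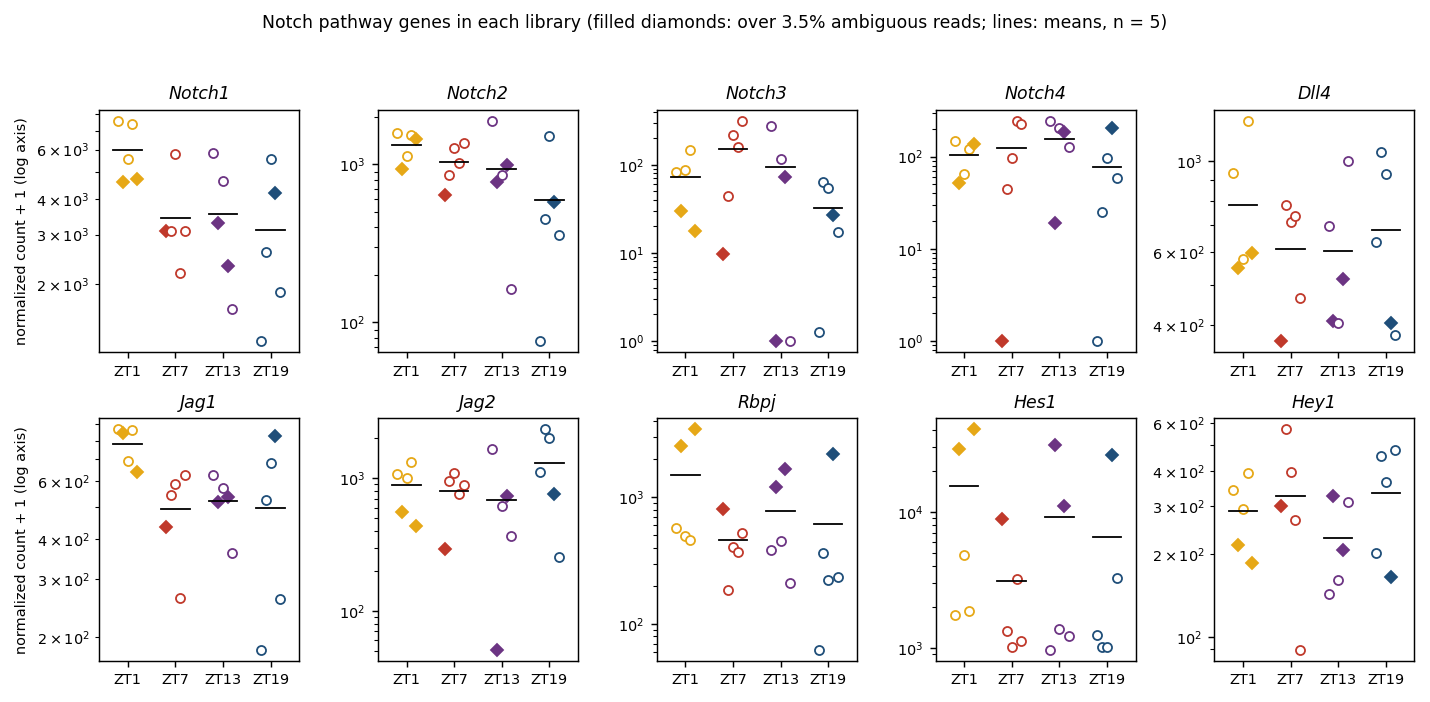
The 10 genes in each of the 20 libraries. The vertical axes give the normalized count plus 1 on a log scale, points are libraries grouped by time point, lines are means over 5 libraries and filled diamonds are the 6 libraries with over 3.5% ambiguous reads. In Hes1 and Rbpj the diamonds stand above all open circles, as for 0.62% of all genes.

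Rbpj and Hes1 divided the libraries in the same way, and the division ran across the time points. Hes1 encodes a repressor that is a direct target of RBPJ (chromosome 16, 30064384 to 30067796, plus strand). It had 1751, 29072, 4825, 1877 and 40247 normalized counts at ZT1, 8797, 1342, 1019.8, 3202 and 1131 at ZT7, 974, 30974, 1375, 11133 and 1218 at ZT13 and then 1255, 1019.5, 1026, 25902 and 3262 at ZT19. Each time point held 1 or 2 libraries well above the others, and these were the 6 libraries with over 3.5% ambiguous reads. In those 6 Hes1 ran from 8797 to 40247, and in the other 14 from 974 to 4825.

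Rbpj (chromosome 5, 53466152 to 53657362, plus strand) had 576, 2516, 498, 457 and 3424 normalized counts at ZT1, 806, 184, 406, 371 and 518 at ZT7, 382, 1209, 448, 1670.4 and 209.9 at ZT13 and then 61.8, 359.6, 219.6, 2193 and 234 at ZT19. The same 6 libraries held 806 to 3424 and the other 14 held 61.8 to 576, so the sets did not overlap for either gene. Of all 19209 genes, 119 (0.62%) lay higher in every one of the 6 libraries than in any of the 14 and 15 (0.0781%) lower, and the 10 members gave 2 and 0. This is a description of sets seen in the data, with no test. No exon of Hes1 or Rbpj overlaps another gene in GENCODE M21, and 2 processed pseudogenes of Rbpj are annotated, whose share of its reads is unknown.

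Within the 14 libraries, Hes1 was related to the share of ambiguous reads with Pearson's r = 0.658 (permutation p = 0.0125, adjusted p = 0.0752 over 6 relations) and a rho (Spearman) of 0.473 (permutation p = 0.089, adjusted p = 0.35), and r was 0.126 when the 2 libraries with the most distant shares were left out. Within the 6 libraries r was 0.308 (exact permutation p = 0.553, adjusted p = 0.553) and rho was 0.314 (exact permutation p = 0.564, adjusted p = 0.564). For Rbpj, r was -0.253 within the 14 (permutation p = 0.37, adjusted p = 0.553; rho = -0.429, permutation p = 0.129, adjusted p = 0.35) and -0.37 within the 6 (exact permutation p = 0.496, adjusted p = 0.553; rho = -0.371, exact permutation p = 0.497, adjusted p = 0.564). Without the 2 farthest libraries r was -0.313 for Hes1 within the 6, and for Rbpj -0.519 within the 14 and -0.293 within the 6. Inside the sets no relation passed the adjusted threshold, and the part of the ambiguous share in the levels of Hes1 and Rbpj was not tested.

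**Figure D4:**
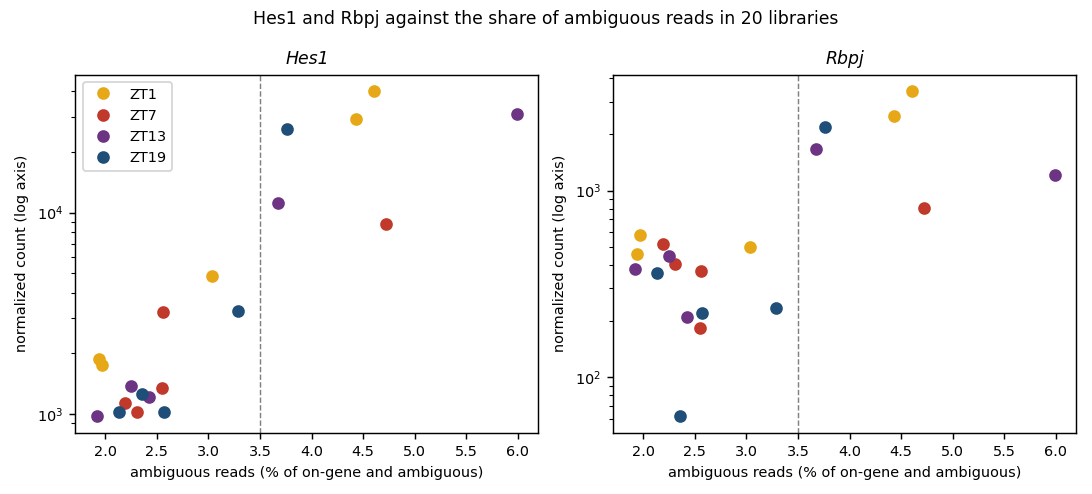
Hes1 and Rbpj against the share of ambiguous reads. The horizontal axes give ambiguous reads in percent of on-gene and ambiguous reads, the vertical axes normalized counts on a log scale, points are the 20 libraries coloured by time point and the dashed line is at 3.5%. To its right Hes1 lies between 8797 and 40247 and Rbpj between 806 and 3424, above all libraries to its left, as for 0.62% of all genes.

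The differences of both genes between time points were smaller or larger depending on these libraries. From ZT1 to ZT7 Rbpj differed by -1.71 (SE 0.73, interval -3.21 to -0.21) and Hes1 by -2.33 (SE 1.05, interval -4.49 to -0.16) on the log2 scale, with 0.916 and 0.946 as adjusted p in the edgeR quasi-likelihood F-test (Benjamini-Hochberg adjusted). Without the 6 libraries the differences were -0.47 (SE 0.49) and -0.76 (SE 0.48), both with an adjusted p of 1 in the same edgeR test.

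From ZT1 to ZT19 Rbpj differed by -1.29 (SE 0.72), with an adjusted p of 0.296 in the edgeR test. When ZT19 replicate 4, the only ZT19 library with over 3.5% ambiguous reads, was left out, the difference was -2.78 (SE 0.67) and the adjusted p was 0.0283. Without that library 4.55% of all genes were called between these time points, against 0.0156% with it. Hes1 then differed by -3.25 (SE 1.03) with an adjusted p of 0.0564 in the same edgeR test. When all 6 libraries were left out, the difference of Rbpj was -1.19 (SE 0.49) with an adjusted p of 0.123 by edgeR and that of Hes1 was -0.75 (SE 0.48) with 0.324. From ZT7 to ZT19 the difference of Rbpj was 0.42 with all libraries and -1.06 without ZT19 replicate 4, and that of Hes1 was 1.07 and -0.92.

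Hey1, the other target gene (chromosome 3, 8663359 to 8667256, minus strand), did not follow Hes1. It had 285 ± 86.8 normalized counts at ZT1, 323 ± 176 at ZT7, 228 ± 83.8 at ZT13 and then 333 ± 144 at ZT19 (SD, n = 5 each). Over the libraries it ran from 88.8 to 568, and the 6 libraries with over 3.5% ambiguous reads lay between 164 and 323, inside the range of the other 14. All pairs of time points overlapped, and its largest difference, from ZT13 to ZT19, was 0.54 (interval -0.37 to 1.46).

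The remaining 8 genes were set against 4 properties of the libraries, 32 relations in all, tested by 100000 permutations with Benjamini-Hochberg adjustment. A larger log2 on-gene odds went with less of all 4 receptors and of Jag1, with r from -0.821 for Notch2 (permutation p = 3e-05, adjusted p = 0.000747) to -0.533 for Notch4 (permutation p = 0.015, adjusted p = 0.0479). Of these 5, Notch2, Notch3 and Notch4 also passed by Spearman's rho (-0.681, -0.785 and -0.673, permutation p = 0.00133, 6e-05 and 0.00159, adjusted p = 0.0102, 0.00096 and 0.0102), while Notch1 and Jag1 did not (rho = -0.442 and -0.385, permutation p = 0.0507 and 0.0943, adjusted p = 0.135 and 0.232). Within time points r lay between -0.742 (Notch2) and -0.478 (Jag1). When the 2 libraries farthest from the median odds were left out, r was -0.654 for Notch2, -0.491 for Notch3 and -0.471 for Notch4, but -0.369 for Notch1 and -0.249 for Jag1, so the relations of Notch1 and Jag1 rest largely on those libraries. Over all genes tested, 50.1% had an absolute r of 0.5 or more with this measure, as did 5 of the 8 genes.

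The length slope of a library says whether long transcripts are read more (positive) or less than short ones, as the slope of centred log2 level on log2 transcript length over all genes but the 10. It was related to Notch1 (r = 0.771, permutation p = 5e-05, adjusted p = 0.000747; rho = 0.835, permutation p = 2e-05, adjusted p = 0.00064), Jag1 (r = 0.753, permutation p = 0.00025, adjusted p = 0.002; rho = 0.635, permutation p = 0.00312, adjusted p = 0.0125) and Notch2 (r = 0.655, permutation p = 0.00341, adjusted p = 0.0156; rho = 0.65, permutation p = 0.00232, adjusted p = 0.0124). Their longest transcripts have 9488, 5612 and 10500 bases. Notch3 (8016 bases) and Notch4 (6591) had an r of the same sign but did not pass (r = 0.466 and 0.431, permutation p = 0.0374 and 0.0533, adjusted p = 0.0997 and 0.107). The part of a gene's own length in these relations was not tested. For Notch1, Jag1 and Notch2, r within time points was 0.741, 0.701 and 0.548, and without the 2 farthest libraries it was 0.681, 0.535 and 0.458. An absolute r of 0.5 or more with the slope was found for 3 of the 8 genes and 17.4% of all genes. With the slope as a covariate, Notch1 differed from ZT1 to ZT19 by -0.14 (SE 0.41) and Jag1 by -0.06 (SE 0.39), where the fits without it gave -0.94 and -0.66. The slope ran from 0.0415 to 0.0817 at ZT1 and from -0.241 to 0.0390 at ZT19, so slope and time point cannot be told apart for this pair. At ZT7 (-0.0963 to 0.123) and ZT13 (-0.0285 to 0.0977) it covered the range of ZT1.

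Jag2 (r = -0.79, permutation p = 7e-05, adjusted p = 0.000747; rho = -0.717, permutation p = 0.00045, adjusted p = 0.0048) and Dll4 (r = -0.607, permutation p = 0.00417, adjusted p = 0.0167; rho = -0.589, permutation p = 0.00738, adjusted p = 0.0262) were lower where more reads were ambiguous. Within time points r was -0.816 and -0.653, and without the 2 farthest libraries -0.552 and -0.496. An absolute r of 0.5 or more with this share was found for 3 of the 8 genes, with Notch3 as the third, and for 17.4% of all genes. The keratinocyte score was related to 0 of the 8 genes at the adjusted threshold, which was also the number with an absolute r of 0.5 or more, beside 5.57% of all genes. With the score as a covariate 0 of the 10 genes were called in any comparison by the edgeR quasi-likelihood F-test. That fit called 5.21% of all genes between ZT1 and ZT19 and 0.0156% between ZT7 and ZT19. It called 0.0104% among the 4 time points, 0.0364% for the rhythm and 0% in each other pair.

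**Figure D5:**
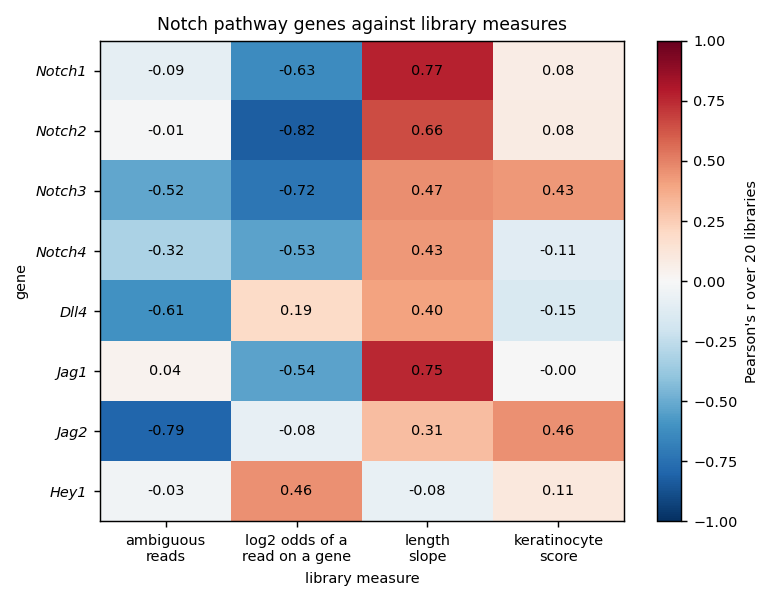
Pearson's r over 20 libraries between 8 of the genes (rows) and 4 library measures (columns), in colour and as numbers from -1 to 1. The receptors and Jag1 are blue for the log2 on-gene odds, and Notch1, Notch2 and Jag1 are red for the length slope. Hes1 and Rbpj are left out because their libraries fall into separate sets.

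Among the same 8 genes, 9 of 28 pairs were related over the 20 libraries at an adjusted p under 0.05, all positively, and 7 of them also by Spearman's rho. By rho alone, Notch4 and Hey1 passed with a negative relation (rho = -0.551, permutation p = 0.0129, adjusted p = 0.0453; r = -0.238, permutation p = 0.311, adjusted p = 0.541). The 9 pairs had an r of 0.571 or more, as did 9.3% of all pairs of the 19209 genes, and the pairs share libraries and genes. The closest was the receptor Notch1 with the ligand Jag1 (r = 0.864, permutation p = 1e-05, the smallest that 100000 permutations give, adjusted p = 0.00014; rho = 0.826, permutation p = 2e-05, adjusted p = 0.00056). Next was Notch1 with Notch2 (r = 0.819, permutation p = 1e-05, adjusted p = 0.00014; rho = 0.803, permutation p = 4e-05, adjusted p = 0.00056). Within time points these r were 0.807 and 0.814, and without the 2 farthest libraries 0.788 and 0.701. After time point, ambiguous share, log2 odds and length slope had been taken out, r was 0.513 and 0.571.

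The ligands Dll4 and Jag2 were related with r = 0.599 (permutation p = 0.00332, adjusted p = 0.0155; rho = 0.665, permutation p = 0.00167, adjusted p = 0.00935), which was 0.61 within time points, 0.539 without the 2 farthest libraries and 0.207 after the same measures. Hes1 and Rbpj, within the 14 libraries, had r = 0.199 (permutation p = 0.492, adjusted p = 0.553; rho = 0.218, permutation p = 0.454, adjusted p = 0.564), and without the 2 farthest 0.131. Within the other 6 r was 0.723 (exact permutation p = 0.121, adjusted p = 0.362; rho = 0.657, exact permutation p = 0.175, adjusted p = 0.35), and 0.0837 without the 2 farthest, so it rests on those libraries.

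The genes whose pattern over the 20 libraries was most like each member were found by Pearson's r of log2 normalized counts, among 19208 other genes, and are a description. Nearest to Hes1 were Cir1 (r = 0.965), Fam133b and Prpf4b (0.963 each), and 449 genes reached 0.8. Nearest to Rbpj were Hoxd3 (0.924) and Pisd-ps1 (0.919), with 283 genes at 0.8 or more. Notch1 was most like Plec (0.893), Reln, an LEC marker (0.891), and Ptpn14 (0.887), with 35 such genes. Reln was the only LEC marker of the list among its 5 nearest genes. Jag2 was most like Llgl2 (0.935) and Myo1d (0.897), with 45 such genes. Dll4 had 5, led by Mex3c (0.855), and Hey1 had 0, its nearest being Phykpl (0.789) and Sox18 (0.786), a transcription factor of endothelium. The points of these correlations share depth, read composition and normalization.

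Of 52 other genes of the pathway, 51 passed the filter (Hes7, a target gene, did not), and 0 of the 51 were called by the edgeR quasi-likelihood F-test (Benjamini-Hochberg adjusted) in any of the 8 comparisons. Among the 4 time points 9 had an unadjusted p under 0.05, beside 15.7% of all genes, and DESeq2 called 1, Dlk2, beside 3.12%. By group, an unadjusted p under 0.05 was reached by 2 of 5 further ligands, 1 of 5 genes of receptor glycosylation, 0 of 4 of ligand ubiquitination, 2 of 10 of receptor cleavage, 2 of 9 of the transcription complex and corepressors, 1 of 9 negative regulators and modifiers and 1 of 9 further target genes. Between ZT1 and ZT19, 16 of the 51 had an unadjusted p under 0.05 in edgeR, beside 21.6% of all genes, and DESeq2 called 5, Dll3, Dlk2, Mfng, Rfng and Ep300, beside 10.3% of all genes. Alternative edgeR settings called 1 to 5 of them in single comparisons that involve ZT19.

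Dlk2, a Delta-like protein without the domain that canonical ligands use to bind Notch, had 167 ± 78.8 normalized counts at ZT1, 220.4 ± 80.8 at ZT7, 128 ± 73.4 at ZT13 and then 469 ± 167 at ZT19 (SD, n = 5 each). The ZT19 libraries (259 to 673) stood above all ZT13 libraries (44.5 to 246), and groups did not overlap for 2 of the 51 pathway genes and 2.48% of all genes between these time points. The difference was 1.87 (SE 0.47), with an adjusted p of 0.0624 in the edgeR quasi-likelihood F-test (Benjamini-Hochberg adjusted) and of 0.00995 in DESeq2. The summed keratinocyte markers had the same order of medians (4502 TPM at ZT1, 10310 at ZT7, 2055 at ZT13 and then 19090 at ZT19). With the keratinocyte score as a covariate the difference of Dlk2 was 1.36 (SE 0.70), adjusted p 0.271 in the same edgeR test. The score did not overlap between ZT13 (at most -0.2503) and ZT19 (at least -0.013968). For this pair the score and the time point cannot be told apart, and that fit called 0% of all genes. The part of keratinocytes in the level of Dlk2 was not tested.

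Ep300, a histone acetyltransferase that joins the Notch transcription complex, was at 1322 ± 435 at ZT1 and 528 ± 200 at ZT19 (normalized counts, SD, n = 5 each). These groups did not overlap, as for 5 of the 51 pathway genes and 8.56% of all genes between these time points, and the difference was -1.33 (SE 0.34), with an adjusted p of 0.0892 in edgeR and 0.00749 in DESeq2. Rfng, a Fringe enzyme that adds sugars to Notch, was at 155 ± 59.8 at ZT1 and 518 ± 374 at ZT19, groups that did not overlap either, with a difference of 1.74 (SE 0.50) and adjusted p values of 0.093 and 0.0185 in edgeR and DESeq2.

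Dll3, a ligand that does not activate Notch on neighbouring cells, and Mfng, another Fringe enzyme, were scarce. Dll3 had 0 reads in all 5 ZT19 libraries and means of 14.1 to 18.9 normalized counts at the other time points, and Mfng had a mean of 0.609 at ZT19 and of 18.2 to 24.8 elsewhere. Fewer genes were detected at ZT19 (12477 to 18768) than at ZT1 (19055 to 21525), and its part in these zeros was not tested. Between ZT7 and ZT19 DESeq2 called 3 of the 51 (Dll3, Mfng and Gja5), beside 10.8% of all genes, and between ZT13 and ZT19 it called 4 (Dll3, Dlk2, Mfng and Ep300), beside 9.24%. Gja5, a connexin of arterial endothelium, was at 50.4 ± 27.8 normalized counts at ZT7 and 2.58 ± 4.47 at ZT19 (SD, n = 5 each).

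The remaining genes named by unadjusted p among the 4 time points were Aph1b and Ncstn, subunits of the gamma-secretase that cuts Notch, Fbxw7, which marks the cut receptor for degradation, and Maml2, a coactivator of the complex. Their adjusted p values lay between 0.266 and 0.296 in the edgeR quasi-likelihood F-test (Benjamini-Hochberg adjusted). Aph1b had its highest mean at ZT13, Ncstn at ZT19, and Fbxw7 and Maml2 at ZT1.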

How the data were processed

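RNA of 20 pools of sorted dermal LECs (5 per time point, grouped by the labels) was made into full-length cDNA without molecular identifiers and sequenced in single reads of 100 nucleotides. Reads were aligned by the authors to mm10 (STAR) and assigned to genes with HTSeq-count (1.0.0), and the deposited values are raw counts per gene symbol, without normalization. The annotation and strand setting they used are not given in the sources used here. The rows for reads on no gene, ambiguous or not aligned were kept out of library sizes and tests.

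Counts were analysed with edgeR 4.0.16 in R 4.3.3 (TMM normalization, filterByExpr by time point, quasi-likelihood F-test over all 20 libraries, Benjamini-Hochberg adjusted p under 0.05 over 19209 genes). Pairs of time points are given as later minus earlier, and intervals cover 95%. DESeq2 1.42.0 ran on the same genes. A normalized count is the count over the library's effective size, times the geometric mean of that size over libraries, and log2 values use a pseudocount of 1. TPM used the longest GENCODE M21 transcript (GRCm38), with a length for 98.5% of symbols. The fits were tested on simulated data.

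The members and lists were chosen with earlier results of these data known. All 10 members are named, and of the other pathway genes those past an adjusted p of 0.05 in either tool and the 8 with the smallest p among the time points. Alternatives were other normalizations, filters and samples, the replicate number as a block, the share of reads on genes and the keratinocyte score as covariates, and leaving out 1 library at a time. The ambiguous share and the length slope as covariates, and leaving out 6 libraries, were added after the data had been seen.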

Additional observations from a re-analysis of the deposited data

Results flagged for a closer look

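Within time points, 2 of 40 groups of 5 libraries held a library whose gap to its nearest neighbour was over 0.71 of the group's range on the log2 scale, the 95% limit of Dixon's test, and chance gives about 1 in 20 groups. Notch4 at ZT13 had 18.0 normalized counts in replicate 2 against 125 to 240.04 in the other 4 libraries (ratio 0.746). Jag2 at ZT7 had 290.03 normalized counts in replicate 1 against 766 to 1104 (ratio 0.727). Both libraries are among the 6 with over 3.5% ambiguous reads, and the part of that share in these values was not tested.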

How the results depend on the processing

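The number of members called was 0 in all 8 comparisons under every alternative except 1: between ZT1 and ZT19 it was 1 (Rbpj) without ZT19 replicate 4, so leaving out single libraries gave 0 to 1. In that setting 902 of 19805 genes were called (4.55%), against 3 of 19209. Among the other pathway genes, the count among the 4 time points was 1 (Dlk2) with DESeq2, beside 3.12% of all genes, and 1 (Dlk2) with the share of ambiguous reads as a covariate, beside 1.8%. Between ZT1 and ZT19 edgeR called 5 of them without ZT19 replicate 4 (Dlk2, Rfng, Ncstn, Maml2 and Ep300), 3 with the keratinocyte score (Dll3, Rfng and Ep300; 5.21% of all genes), 2 with the ambiguous share (Dll3 and Ep300; 3.42%) and 1 without ZT13 replicate 5 (Ep300; 0.963%). Between ZT13 and ZT19 it called 3 without ZT13 replicate 5 (Dll3, Dlk2 and Ncstn; 4.30%), 2 with the ambiguous share (Dll3 and Dlk2; 4.63%), and Dlk2 alone with at least 10 counts in at least 10 libraries (0.926%), without ZT13 replicate 1 (0.363%) and without ZT19 replicate 4 (0.712%). No member passed the threshold from ZT7 to ZT19 under any setting, and only Jag2 kept its sign under all of them, so no direction is claimed for that pair.

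Signs of the ZT19 minus ZT7 difference turned as follows, on the log2 scale. With the log2 on-gene odds as a covariate Notch1 was 0.39, Notch2 0.16, Notch3 0.81, Notch4 0.48, Dll4 -0.16 and Hey1 -0.48. With the length slope Notch1 was 0.25. With RLE normalization and with DESeq2 Dll4 was -0.04, Jag1 -0.23 and Hey1 -0.10, and with upper-quartile scaling -0.09, -0.28 and -0.15. These scalings moved the median of all genes by -0.23 (RLE and DESeq2) and -0.29 (upper quartile). Jag1 was -0.02 with at least 10 counts in at least 10 libraries, and -0.01 with the keratinocyte score. Without the libraries over 3.5% ambiguous reads Jag1 was -0.27 and Rbpj -0.72. Leaving out single libraries gave Notch1 -0.47 to 0.12, Dll4 -0.06 to 0.31, Jag1 -0.25 to 0.23, Rbpj -1.06 to 0.73, Hes1 -0.92 to 1.96 and Hey1 -0.20 to 0.35. The cause of these turns was not tested.

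With the replicate number as a block, 0 members were called in each comparison, Jag1 was -0.09 and Rbpj -0.49 from ZT7 to ZT19, and 31 genes differed among the 4 time points against 81 without it. Same-numbered libraries come from different mice, and their deviations correlated between -0.541 and 0.343. No source used here says whether the number marks a shared batch.

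Notch3 and Notch4 had 0 reads in 2 libraries each, all with more reads on genes than the median library.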
